A study of Mus musculus with 75 samples.

Results

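The aquaporin genes Aqp1, Aqp2, Aqp3, Aqp4, Aqp6, Aqp7 and Aqp11 and Avpr2, the gene of the vasopressin V2 receptor, were followed in mouse kidneys after obstruction of the ureter. They were picked by symbol as 8 of the 32245 genes in the table of read counts, by a rule that uses no measured value, although the set was drawn up with earlier results of these data known. Aquaporins are membrane channels that let water, and in some cases glycerol, cross a cell membrane. In the collecting duct, vasopressin binds the V2 receptor on principal cells, cAMP rises, and AQP2 moves from vesicles to the membrane facing the urine, while AQP3 and AQP4 on the opposite membrane let the water out towards the blood. AQP1 carries water across the proximal tubule and the thin descending limb, AQP7 passes glycerol in the last stretch of the proximal tubule, AQP11 sits inside proximal tubule cells, and AQP6 sits in vesicles of intercalated cells, which handle acid and base.

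The 75 libraries were made from RNA of whole kidneys, with obstructed (UUO) and contralateral (CL) kidneys taken 3 days after unilateral ureteral obstruction of adult mice of either sex. They formed 3 arms of 4 groups each. In the ABTAA arm, C57BL6/J or other wild-type mice received ABTAA, an antibody that binds angiopoietin-2 and clusters it into an activator of the endothelial receptor TIE2, or human IgG Fc as control. It held 8 CL and 8 UUO libraries of IgG-treated mice and 7 of each from ABTAA-treated mice. In the Veptp arm, floxed Veptp was deleted in endothelial cells by a tamoxifen-inducible Cdh5-CreERT2 (Veptp iECKO), and the Veptp WT littermates carried 1 floxed allele and the same Cre without induction. It held 7 CL and 8 UUO libraries of Veptp WT mice and 6 CL and 8 UUO libraries of Veptp iECKO mice. The study's methods list fewer Veptp WT mice than there are UUO libraries with that label. In the Pdgfb arm, floxed Pdgfb was deleted in the whole body by a tamoxifen-inducible Actb-CreERT2 induced 1 week earlier (Pdgfb iKO), and the Pdgfb WT littermates carried floxed alleles and no Cre. It held 4 libraries in each of its 4 groups, and per the study's methods the Pdgfb WT CL group includes kidneys of 2 sham-operated mice that the labels do not mark. Genetically modified mice were on a mixed background. Per the study's methods, the operated mice received the analgesic and antiinflammatory drug carprofen before surgery and daily for 2 days after it. The labels give neither the sex of each mouse nor which CL and UUO kidneys came from the same animal.

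Totals ran from 172827 to 2341800 counts per library around a median of 757897, and a count of 10 in the shallowest library therefore carries large counting error. The names of 30 libraries in the ABTAA and Veptp arms join a letter and a number by a low line (joined names, such as P_4), those of the other 45 libraries do not (plain names, such as C6), and the sources used here do not say what these forms of name stand for. Ptprb, the gene that Veptp names, had mean levels of 53.9 CPM in Veptp WT and 34.1 CPM in Veptp iECKO CL kidneys, and of 51.2 and 33.3 CPM in UUO kidneys, and neither difference passed the test over all genes. Pdgfb itself was not lower in CL libraries labelled Pdgfb iKO (19.0 ± 4.0 CPM, SD, n = 4) than in those labelled Pdgfb WT (10.4 ± 6.7 CPM, SD, n = 4), whereas in UUO libraries it ran from 33.4 to 40.6 CPM against 43.2 to 57.8 CPM without overlap, and neither difference passed the test (adjusted p of 1.0 and 0.124). Directions between those genotypes rest on the labels. CPM here are counts relative to the library total after trimmed-mean scaling within an arm, and levels are compared only within an arm.

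Positions are on GRCm38. Aqp2 (chr15:99579055-99584547, plus strand) and Aqp6 (chr15:99601400-99605477, plus strand) are 16853 bases apart. Aqp3 (chr4:41092722-41098183, minus strand) and Aqp7 (chr4:41033074-41048139, minus strand) are 44583 bases apart. Aqp1 is at chr6:55336432-55348555 on the plus strand and Aqp11 at chr7:97724006-97738289 on the minus strand. Avpr2 (chrX:73892102-73895502, plus strand) lies inside Arhgap4 on the opposite strand, and 2347 of its 2886 exon bases overlap Arhgap4 exons. The strand setting of the counting is not given in the sources used here, and reads of Avpr2 and Arhgap4 cannot be told apart with certainty.

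The promoters of Aqp2 and Aqp3 are shown because both channels belong to the principal cell and the text below compares their changes. Each runs from 250 bases before to 50 bases after the start in RefSeq, build GRCm38.p6, and 7 of the 8 genes were matched there. In Aqp2 (chr15:99578806-99579105, plus strand) the capitals mark CGTCA, which is the reverse complement of the short cAMP response motif TGACG, and TTATCT, the reverse complement of the GATA motif AGATAA. No capitals stand in Aqp3 (chr4:41098134-41098433, minus strand), where none of the motifs searched was found.
Aqp2: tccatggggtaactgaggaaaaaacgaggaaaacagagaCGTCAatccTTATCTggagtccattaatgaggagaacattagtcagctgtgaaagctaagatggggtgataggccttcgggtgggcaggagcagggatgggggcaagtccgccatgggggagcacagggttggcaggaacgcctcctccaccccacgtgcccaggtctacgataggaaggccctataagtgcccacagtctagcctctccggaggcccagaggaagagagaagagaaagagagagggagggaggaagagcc
Aqp3: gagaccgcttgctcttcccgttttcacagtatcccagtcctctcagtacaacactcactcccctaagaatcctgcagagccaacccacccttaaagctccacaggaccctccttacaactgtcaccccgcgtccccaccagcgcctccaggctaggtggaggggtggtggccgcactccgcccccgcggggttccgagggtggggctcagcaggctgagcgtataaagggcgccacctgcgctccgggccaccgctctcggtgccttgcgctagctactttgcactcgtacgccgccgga

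The motifs were searched on both strands, and in Aqp2 they begin at offsets of -211 (the cAMP motif) and -202 (the GATA motif) from the start. Of all 32841 promoters of this length, 20.8% hold TGACG, 11.2% hold AGATAA, 21.4% hold TGGAAA, the core of the tonicity element, and 1.79% hold the full cAMP response element TGACGTCA, which includes the short one. Among the other members, 1 of the windows of Aqp7 holds AGATAA and TGGAAA, and none of the 4 was found in those of Aqp1, Aqp6, Aqp11 and Avpr2. A match describes these letters and not a bound factor.

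Most of the 8 genes fell in obstructed kidneys. All 48 fitted changes (8 genes in 6 genotypes or treatments) were below 0, and the number that passed the test (quasi-likelihood F test of edgeR, p adjusted by Benjamini-Hochberg over the genes of an arm, under 0.05) was 5 in IgG-treated, 5 in ABTAA-treated, 6 in Veptp WT, 6 in Veptp iECKO, 5 in Pdgfb WT and 2 in Pdgfb iKO mice. The share of all tested genes called lower was 18.4%, 12.5%, 8.38%, 3.47%, 19.4% and 2.4% in the same order. The share called higher was 16%, 12.7%, 10%, 4.47%, 17.9% and 3.94%, and no member was among them. The median log2 change of the 8 genes was -1.23, -1.15, -1.24, -1.16, -1.05 and -0.41, beside medians between -0.01 and 0.04 over all tested genes. In whole-kidney RNA, fewer cells of a type and less RNA per cell cannot be told apart.

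**Figure D1:**
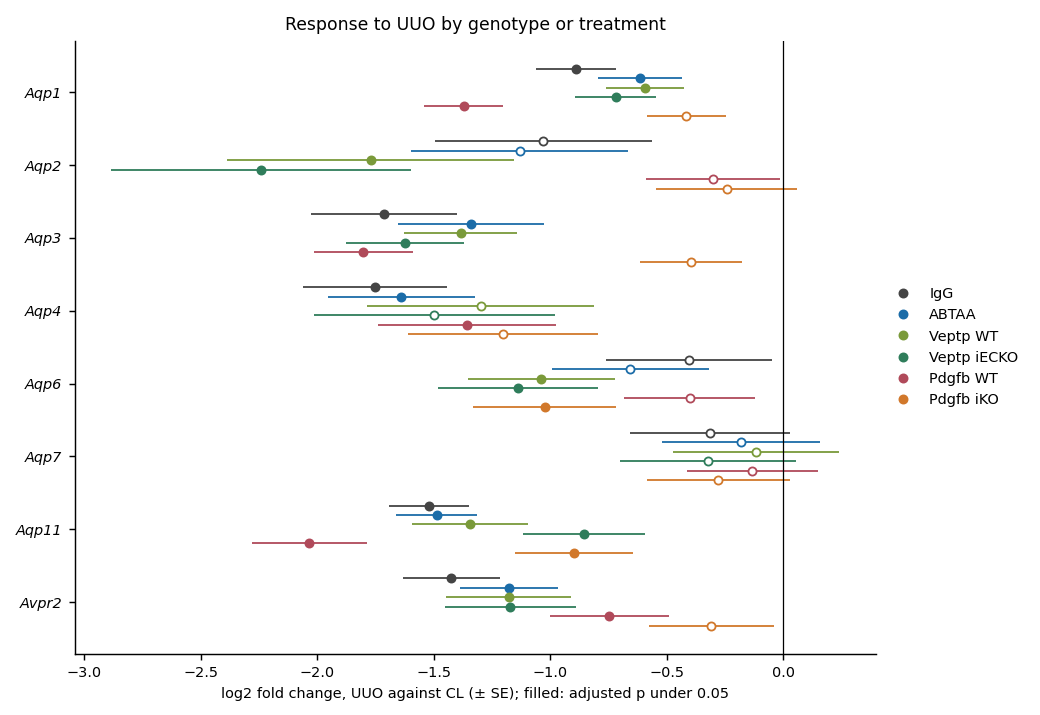
Log2 fold change of each gene in UUO against CL kidneys (x axis, with SE bars) for the 6 genotypes or treatments, filled where the adjusted p was under 0.05. Every point lies left of 0, Aqp3 in Pdgfb iKO mice (-0.40) sits far from Aqp3 in the other groups (-1.80 to -1.34), and no point of Aqp7 is filled.

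Avpr2, the receptor, fell in 5 of the 6 comparisons. Its level in IgG-treated mice ran from 32.2 to 84.0 CPM around a median of 45.2 CPM in CL kidneys and from 13.1 to 24.4 CPM around 18.4 CPM in UUO kidneys. The 8 UUO kidneys all lay below the 8 CL kidneys, and the log2 change was -1.42 (SE 0.21, adjusted p = 1.65e-06). ABTAA-treated mice had CL kidneys from 34.1 to 69.1 CPM (median 48.5 CPM) and UUO kidneys from 14.9 to 36.1 CPM (median 20.5 CPM), which overlapped in part, with a change of -1.18 (SE 0.21, adjusted p = 6.1e-05). In Veptp WT mice the CL range of 35.3 to 70.5 CPM (median 48.2 CPM) and the UUO range of 6.14 to 29.2 CPM (median 24.9 CPM) did not overlap, with a change of -1.18 (SE 0.27, adjusted p = 0.00193). In Veptp iECKO mice the ranges were 34.6 to 105.8 CPM (median 55.5 CPM) and 12.2 to 51.4 CPM (median 27.5 CPM), with a change of -1.17 (SE 0.28, adjusted p = 0.00738). High UUO kidneys of that genotype reached into the CL range. Within plain names Avpr2 did not pass in Veptp WT (-0.95, adjusted p = 0.0682) or Veptp iECKO mice (-0.47, adjusted p = 0.873), nor with counts thinned to the shallowest library of the arm (-0.73, adjusted p = 0.688, and -0.30, adjusted p = 0.953).

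In Pdgfb WT mice Avpr2 stood at 17.7, 44.6, 39.8 and 45.0 CPM in CL kidneys and at 18.2, 17.9, 26.6 and 23.5 CPM in UUO kidneys. A single CL kidney was as low as the UUO kidneys, the other 3 were higher, and the change was -0.75 (SE 0.26, adjusted p = 0.0232), a call that was lost without any 1 of 5 libraries (adjusted p between 0.0517 and 0.0997). It was also lost when only library totals scaled the counts (-0.37, adjusted p = 0.22), with thinned counts (-1.27, adjusted p = 0.113) and in 1 fit over all 12 groups (-0.76, adjusted p = 0.0675). In Pdgfb iKO mice Avpr2 was at 33.2, 57.5, 38.6 and 41.9 CPM in CL and 26.7, 24.7, 31.6 and 46.1 CPM in UUO kidneys, which overlapped, and the change of -0.31 (SE 0.27) had an adjusted p of 0.57. Arhgap4, which shares most of the Avpr2 exon bases, moved in the same direction by less: -0.63 in IgG-treated (adjusted p = 0.0044), -0.55 in ABTAA-treated (adjusted p = 0.0225), -0.74 in Veptp WT (adjusted p = 0.0029) and -0.50 in Pdgfb WT mice (adjusted p = 0.0431). In Veptp iECKO and Pdgfb iKO mice its values were -0.57 and -0.22, with adjusted p of 0.0508 and 0.602. Its part in the Avpr2 values was not tested.

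**Figure D2:**
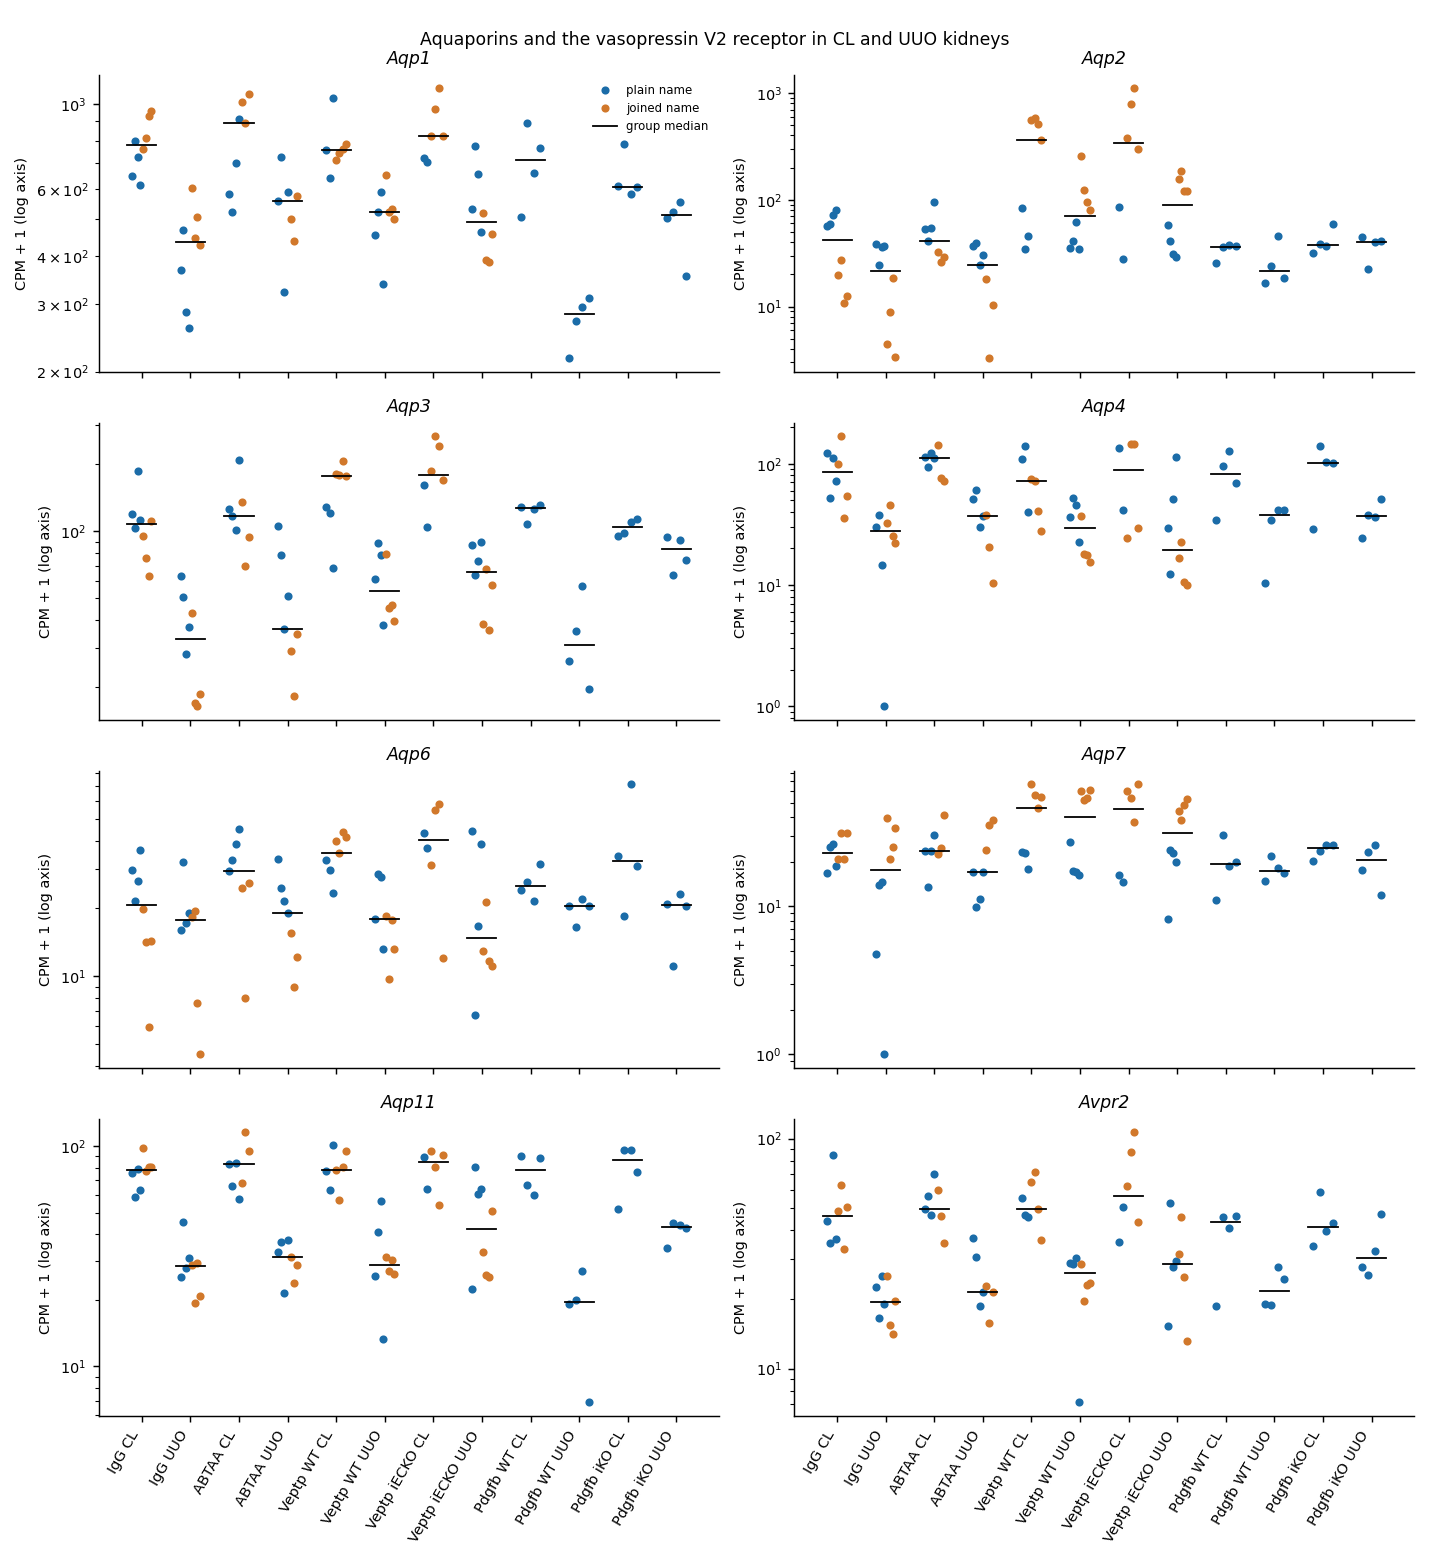
Level of each of the 8 genes in every library (y axis, CPM + 1 on a log scale, scaled within an arm) for the 12 groups, with 1 point per library coloured by form of name and a black line at the group median. UUO kidneys sit lower than CL kidneys for Aqp1, Aqp3, Aqp11 and Avpr2 in most groups, and the points of Aqp2 in the Veptp arm spread from 27.1 to 1111 CPM among CL kidneys.

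Aqp2, the water channel that vasopressin moves to the membrane, had a wide spread. In IgG-treated mice it ran from 9.91 to 79.9 CPM (median 41.1 CPM) in CL kidneys and from 2.34 to 37.7 CPM (median 20.5 CPM) in UUO kidneys, and in ABTAA-treated mice from 25.2 to 94.3 CPM (median 40.2 CPM) and from 2.29 to 38.6 CPM (median 23.3 CPM). The ranges overlapped in both, and neither change passed: -1.03 in IgG-treated (SE 0.47, adjusted p = 0.085) and -1.13 in ABTAA-treated mice (SE 0.47, adjusted p = 0.0718). With the form of name (plain or joined) in the model the IgG value was -1.03 (SE 0.27, adjusted p = 0.00199) and the ABTAA value -1.13 (SE 0.27, adjusted p = 9.61e-04), and with the replicate number of the ABTAA-treated mice as a block as well they were -1.06 (adjusted p = 0.00111) and -1.15 (adjusted p = 4.03e-04). In IgG-treated mice Aqp2 also passed without library P_4 (-1.17, adjusted p = 0.0497) or C6 (-1.37, adjusted p = 0.0359), and in ABTAA-treated mice without G5 (-1.31, adjusted p = 0.0451) or H5 (-1.29, adjusted p = 0.0464) and by edgeR's exact test (-1.09, adjusted p = 0.0303).

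In the Veptp arm Aqp2 was called lower in both genotypes. Veptp WT kidneys ran from 33.7 to 587 CPM (median 358 CPM) in CL and from 33.8 to 258 CPM (median 70.2 CPM) in UUO, a change of -1.77 (SE 0.62, adjusted p = 0.0424) that was lost without any 1 of 11 libraries (adjusted p up to 0.0973). Veptp iECKO kidneys ran from 27.1 to 1111 CPM (median 340 CPM) in CL and from 28.3 to 184 CPM (median 89.0 CPM) in UUO, a change of -2.24 (SE 0.64, adjusted p = 0.0255), lost without library G_2 (-2.02, adjusted p = 0.0693) or G_3 (-1.76, adjusted p = 0.104). The ranges overlapped in both genotypes. Within plain names Aqp2 changed by -0.33 in Veptp WT (adjusted p = 0.598) and -0.65 in Veptp iECKO mice (adjusted p = 0.823), values that did not pass, and within joined names by -1.86 (adjusted p = 7.7e-04) and -2.18 (adjusted p = 1.95e-04). Both calls were lost without scaling (-1.69, adjusted p = 0.102, and -2.15, adjusted p = 0.0698) and with thinned counts (adjusted p of 0.183 and 0.18), and the Veptp WT call with a mean count of at least 20 (adjusted p = 0.0532). In Pdgfb WT mice Aqp2 was at 24.4, 34.9, 36.9 and 35.6 CPM in CL and 15.7, 23.2, 44.4 and 17.6 CPM in UUO kidneys, and in Pdgfb iKO mice at 30.7, 37.5, 36.3 and 57.8 CPM and at 43.4, 21.3, 39.3 and 39.8 CPM. The groups overlapped, with a change of -0.30 in Pdgfb WT (SE 0.29, adjusted p = 0.444) and of -0.24 in Pdgfb iKO mice (SE 0.30, adjusted p = 0.715). The Pdgfb WT value was -0.80 (adjusted p = 0.0218) without C12, the UUO library at 44.4 CPM.

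Within the Veptp arm the spread of Aqp2 followed the form of library name. Among CL kidneys, libraries with plain names had medians of 44.8 CPM (Veptp WT) and 55.8 CPM (Veptp iECKO), and those with joined names had medians of 532 CPM and 586 CPM. Among UUO kidneys the medians were 37.0 and 34.9 CPM with plain names and 108 and 138 CPM with joined names. The forms did not overlap within any of these groups, and the log2 difference, joined minus plain, was 3.35 in CL (adjusted p = 1.6e-09) and 1.89 in UUO kidneys (adjusted p = 2.36e-06). In the ABTAA arm the difference ran the other way, -1.46 in CL (adjusted p = 1.7e-05) and -1.92 in UUO kidneys (adjusted p = 1.38e-05), where medians of plain names ran from 32.8 to 64.5 CPM and those with joined names from 5.71 to 27.9 CPM. Of all genes tested, 25.4% (ABTAA arm, CL), 22.9% (ABTAA arm, UUO), 38.4% (Veptp arm, CL) and 51% (Veptp arm, UUO) differed between the forms. The form of a name and what it stands for cannot be told apart here.

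**Figure D3:**
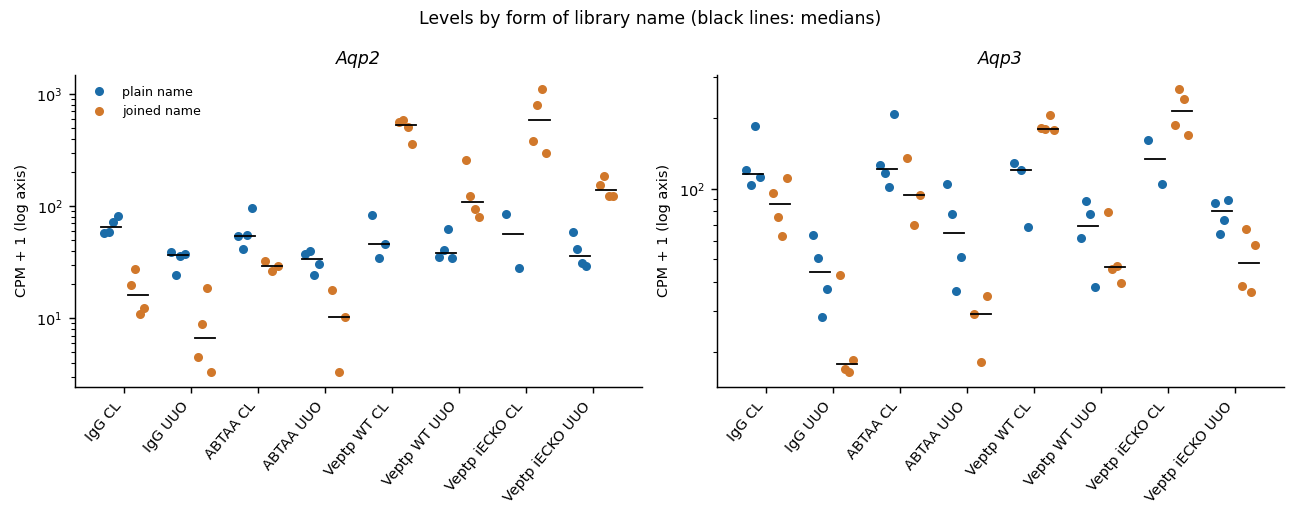
Level of Aqp2 and Aqp3 in the ABTAA and Veptp arms (y axis, CPM + 1 on a log scale, 1 point per library, black lines at medians), with libraries split by the form of their name. Aqp2 with joined names sits between 299 and 1111 CPM in Veptp CL kidneys and between 9.91 and 31.5 CPM in ABTAA-arm CL kidneys, while libraries with plain names lie from 27.1 to 94.3 CPM in both.

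Other members differed by form as well. Aqp7 was higher with joined names in Veptp-arm CL (1.64, adjusted p = 1.28e-06), Veptp-arm UUO (1.403, adjusted p = 4.99e-08) and ABTAA-arm UUO kidneys (1.59, adjusted p = 5.84e-05). Aqp3 was higher in Veptp-arm CL (0.74, adjusted p = 0.00365) and lower in Veptp-arm UUO (-0.51, adjusted p = 0.0204), ABTAA-arm CL (-0.55, adjusted p = 0.0448) and ABTAA-arm UUO kidneys (-1.27, adjusted p = 4.09e-04). Aqp6 was lower in ABTAA-arm CL (-0.96, adjusted p = 0.00569), ABTAA-arm UUO (-0.95, adjusted p = 0.0186) and Veptp-arm UUO kidneys (-0.74, adjusted p = 0.0448). Smaller sets of calls fell to Aqp4 (-1.50 in Veptp-arm UUO, adjusted p = 0.00209), Aqp11 (-0.53 in Veptp-arm UUO, adjusted p = 0.0407) and Aqp1 (0.43 in ABTAA-arm CL, adjusted p = 0.0259), and Avpr2 passed in none of the 4.

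Marker genes of other cells moved with the form too. Red blood cell genes were lower with joined names (4 of 5 tested, median log2 difference -2.76, in Veptp-arm CL and 4 of 5, median -3.02, in Veptp-arm UUO kidneys, and 4 of 4, median -1.40, in ABTAA-arm CL kidneys). The medians of urothelial genes were 3.27 and 2.45 in the Veptp arm, with 1 and 2 of 4 called higher. The summed urothelial level over 5 genes stayed between 0 and 163 CPM in every library. Of 13 principal cell genes in Veptp-arm CL kidneys 4 were called higher and 1 lower (median 0.20), beside 38.4% of all genes in either direction. Of 12 genes of the thick limb, urea transport and tonicity response 7 were higher and 1 lower there (median 0.82). Of 6 intercalated cell genes 3 were higher and 0 lower (median 0.68). Among the principal cell genes Scnn1a, a subunit of the epithelial sodium channel, was higher (2.49, adjusted p = 2.1e-11). Fxyd4, a regulator of the sodium pump, was lower (-1.55, adjusted p = 1.15e-05), and Hsd11b2, which inactivates glucocorticoids, did not pass (0.20, adjusted p = 0.489). These 3 were picked after their values were seen. The part of all these marker genes in the Aqp2 difference was not tested.

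The response to UUO itself differed by form for a single member. In the Veptp arm the log2 response of Aqp3 differed, joined minus plain, by -1.25 (SE 0.27, adjusted p = 0.0232), where 0.367% of genes passed. The Aqp2 value there was -1.45 (SE 0.46, adjusted p = 0.231). In the ABTAA arm 0% of genes passed, and the members ran from -0.72 (Aqp3, adjusted p = 0.505) to 1.24 (Aqp7, adjusted p = 0.216). Within plain names the members called lower in UUO numbered 7 of 8 in IgG-treated, 5 of 8 in ABTAA-treated, 3 of 7 in Veptp WT and 0 of 7 in Veptp iECKO mice, beside 12.6%, 4.38%, 6.69% and 0% of all genes tested. Within joined names they numbered 5, 6, 6 and 7 of 8, beside 15.4%, 12.9%, 12.3% and 11.2%. Plain names include 2 Veptp iECKO CL libraries. With the form of name in the model 6, 6, 7 and 7 members were called lower, beside 21.6%, 16.9%, 17.3% and 10.8% of all genes.

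Aqp3, on the blood-facing membrane of principal cells, fell in 5 of the 6 comparisons. In IgG-treated mice it ran from 61.9 to 185 CPM (median 107 CPM) in CL and from 15.3 to 62.1 CPM (median 31.7 CPM) in UUO kidneys, ranges that overlapped at their ends, with a change of -1.71 (SE 0.31, adjusted p = 4.5e-05). In ABTAA-treated mice it ran from 68.7 to 207 CPM (median 116 CPM) and from 17.2 to 104 CPM (median 35.5 CPM), which overlapped, with a change of -1.34 (SE 0.32, adjusted p = 0.00146). Veptp WT kidneys ran from 67.3 to 206 CPM (median 177 CPM) and from 36.8 to 87.3 CPM (median 53.0 CPM), which also overlapped, with a change of -1.39 (SE 0.24, adjusted p = 1.16e-04). In Veptp iECKO mice the CL range of 104 to 267 CPM (median 178 CPM) lay wholly above the UUO range of 35.1 to 88.2 CPM (median 64.7 CPM), a change of -1.62 (SE 0.25, adjusted p = 1.22e-04). By form, Aqp3 in Veptp WT mice was -0.63 (adjusted p = 0.119) with plain names and in Veptp iECKO mice -0.77 (adjusted p = 0.697), neither of which passed, and with joined names the values were -1.86 and -2.15. With thinned counts Aqp3 did not pass in ABTAA-treated (-1.17, adjusted p = 0.0694), Veptp WT (-1.28, adjusted p = 0.12) or Veptp iECKO mice (-1.36, adjusted p = 0.27).

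Aqp4 (chr18:15389496-15410982, minus strand), the other channel on the blood-facing membrane, fell by 1.75 on the log2 scale in IgG-treated mice (SE 0.31, adjusted p = 2.8e-05), from a median of 85.0 CPM (34.7 to 168 CPM) in CL kidneys to 26.6 CPM (0 to 44.9 CPM) in UUO kidneys. The kidney at 0 is the shallowest library, D7, where a count of 0 allows up to 18.1 CPM (3 counts, counting error only). In ABTAA-treated mice the CL kidneys (71.4 to 142 CPM, median 111 CPM) all lay above the UUO kidneys (9.34 to 59.3 CPM, median 36.4 CPM), a change of -1.64 (SE 0.32, adjusted p = 1.56e-04). In Pdgfb WT mice Aqp4 was at 33.3, 94.8, 127 and 68.1 CPM in CL and 9.41, 33.3, 40.5 and 40.2 CPM in UUO kidneys (-1.36, SE 0.38, adjusted p = 0.00661). The changes in Veptp WT (-1.30, SE 0.49, adjusted p = 0.0615), Veptp iECKO (-1.50, SE 0.52, adjusted p = 0.0725) and Pdgfb iKO mice (-1.20, SE 0.41, adjusted p = 0.082) did not pass. Each of these 3 passed without any 1 of 3 libraries, G_8, C9 or E9 for Veptp WT, B8, G_1 or E9 for Veptp iECKO and E4, B10 or B11 for Pdgfb iKO mice (adjusted p from 0.00442 to 0.0464). With the form of name in the model, Aqp4 passed in Veptp WT (-1.38, adjusted p = 0.00429) and Veptp iECKO mice (-1.98, adjusted p = 6.04e-04). By edgeR's exact test on the compared groups alone, the test of the study, Aqp4 passed in Veptp WT (-1.28, adjusted p = 0.00817) and Pdgfb iKO mice (-1.26, adjusted p = 0.00724). Calls of Aqp4 were lost with thinned counts in ABTAA-treated (-1.15, adjusted p = 0.133) and Pdgfb WT mice (-0.87, adjusted p = 0.296), and in Pdgfb WT mice in 1 fit over all 12 groups (-1.38, adjusted p = 0.0631).

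Aqp4 varied with Xist, the RNA made from the inactive X chromosome of female cells. Over the 75 libraries, after removing the mean of each group and form, the correlation of Aqp4 with Xist was r = 0.614, beside 0.534 for Aqp6, 0.473 for Aqp2, 0.393 for Aqp3 and 0.267 for Avpr2, and -0.0393, -0.118 and -0.112 for Aqp1, Aqp7 and Aqp11. These are descriptions over libraries that share arms and depth. With the Xist level as a covariate, a setting chosen after seeing the data, Aqp4 passed in all 6 comparisons, and the values that newly passed were -1.78 in Veptp WT (adjusted p = 1.86e-04), -1.09 in Veptp iECKO (adjusted p = 0.0322) and -1.01 in Pdgfb iKO mice (adjusted p = 0.0165). The same covariate brought Aqp2 in ABTAA-treated mice under the threshold (-1.17, adjusted p = 0.0405) and ended its call in Veptp WT mice (-1.56, adjusted p = 0.112).

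Aqp6, of the intercalated cells, passed the test in Veptp WT (-1.04, SE 0.32, adjusted p = 0.0195), Veptp iECKO (-1.14, SE 0.34, adjusted p = 0.0345) and Pdgfb iKO mice (-1.02, SE 0.31, adjusted p = 0.0449), and not in IgG-treated (-0.40, SE 0.36, adjusted p = 0.403), ABTAA-treated (-0.66, SE 0.34, adjusted p = 0.162) or Pdgfb WT mice (-0.40, SE 0.28, adjusted p = 0.284). Its levels were low, with group medians from 13.8 to 39.2 CPM, and CL and UUO kidneys overlapped in the Veptp arm (22.4 to 42.7 CPM against 8.75 to 27.4 CPM in Veptp WT mice). In Pdgfb iKO mice it stood at 33.2, 17.5, 70.3 and 29.9 CPM in CL and 20.0, 10.1, 22.2 and 19.5 CPM in UUO kidneys. That call was lost without any 1 of 9 libraries, and without E10, the CL library at 70.3 CPM, the change was -0.65 (adjusted p = 0.209). In Veptp iECKO mice it was lost without any 1 of 7 libraries (adjusted p up to 0.103), and edgeR's exact test called Aqp6 in neither Veptp iECKO (-1.13, adjusted p = 0.123) nor Pdgfb iKO mice (-1.03, adjusted p = 0.0709). Within plain names Aqp6 did not pass in Veptp WT (-0.35, adjusted p = 0.631) or Veptp iECKO mice (-0.69, adjusted p = 0.827), and with thinned counts the Veptp WT, Veptp iECKO and Pdgfb iKO calls were lost (adjusted p of 0.179, 0.468 and 0.964). The Pdgfb iKO call was also lost without scaling (adjusted p = 0.0642) and in 1 fit over all 12 groups (adjusted p = 0.336), and the Veptp iECKO call with a mean count of at least 20 (adjusted p = 0.0533).

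Aqp1, the water channel of the proximal tubule, fell in 5 of the 6 comparisons. Its level in IgG-treated mice ran from 612 to 956 CPM (median 780.2 CPM) in CL kidneys and from 259.5 to 603 CPM (median 436 CPM) in UUO kidneys. All UUO kidneys lay below all CL kidneys, with a change of -0.89 (SE 0.17, adjusted p = 8.8e-05). In ABTAA-treated mice it ran from 519.7 to 1058 CPM (median 891 CPM) and from 322 to 727 CPM (median 558 CPM), overlapping, with a change of -0.62 (SE 0.18, adjusted p = 0.0103). Veptp WT kidneys ran from 639 to 1037 CPM (median 756 CPM) and from 338 to 650.2 CPM (median 520.5 CPM), a change of -0.60 (SE 0.17, adjusted p = 0.0114), and Veptp iECKO kidneys from 705 to 1099 CPM (median 825 CPM) and from 385 to 777 CPM (median 491 CPM), a change of -0.72 (SE 0.17, adjusted p = 0.00804). In both genotypes the highest UUO kidneys were within the CL range. Within plain names Aqp1 did not pass in ABTAA-treated (-0.28, adjusted p = 0.444) or Veptp iECKO mice (-0.21, adjusted p = 0.902). The Veptp iECKO call was also lost by edgeR's exact test (-0.71, adjusted p = 0.0548), and the Veptp WT call without scaling (-0.42, adjusted p = 0.126). With thinned counts the ABTAA, Veptp WT and Veptp iECKO calls were lost (-0.31, -0.27 and -0.46, adjusted p of 0.44, 0.724 and 0.661).

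Aqp11, an aquaporin inside proximal tubule cells, passed the test in all 6 comparisons. In IgG-treated mice it ran from 58.2 to 96.8 CPM (median 77.2 CPM) in CL and from 18.5 to 44.3 CPM (median 27.5 CPM) in UUO kidneys (-1.52, SE 0.17, adjusted p = 1.93e-08). ABTAA-treated kidneys ran from 56.6 to 115 CPM (median 82.5 CPM) and from 20.5 to 36.4 CPM (median 30.4 CPM) (-1.49, SE 0.18, adjusted p = 6.77e-08), and Veptp WT kidneys from 55.9 to 101 CPM (median 76.7 CPM) and from 12.3 to 55.7 CPM (median 27.9 CPM) (-1.35, SE 0.25, adjusted p = 2.41e-04). UUO and CL kidneys did not overlap in any of these. Veptp iECKO kidneys ran from 53.3 to 94.5 CPM (median 84.1 CPM) and from 21.5 to 80.0 CPM (median 41.0 CPM) and did overlap, and their change of -0.86 (SE 0.26, adjusted p = 0.0375) was lost without any 1 of 8 libraries (adjusted p up to 0.0902) and by edgeR's exact test (-0.88, adjusted p = 0.0627). Within plain names it was -0.38 (adjusted p = 0.891). With thinned counts the calls in IgG-treated (-0.77, adjusted p = 0.253), Veptp WT (-0.72, adjusted p = 0.643) and Veptp iECKO mice (-1.03, adjusted p = 0.595) were lost.

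Aqp7, the glycerol channel, passed in none of the 6 comparisons, with changes from -0.32 (Veptp iECKO, SE 0.38, adjusted p = 0.72) to -0.12 (Veptp WT, SE 0.36, adjusted p = 0.879). Its group medians ran from 16.0 to 45.5 CPM. Within libraries with plain names Aqp7 in IgG-treated mice was at 15.8, 23.9, 25.5 and 17.8 CPM in CL and 3.77, 13.0, 13.5 and 0 CPM in UUO kidneys, with a change of -1.44 (adjusted p = 0.0214). The 0 is library D7, where a count of 0 allows up to 18.1 CPM, above CL kidneys at 15.8 and 17.8 CPM. Within libraries with joined names it was 0.13 (adjusted p = 0.774). AQP7 is also a glycerol channel of fat cells, and the summed level of 6 fat cell genes ran from 0 to 391 CPM over the libraries, with r = 0.0337 to Aqp7 after removing group and form means.

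Treatment with ABTAA left no member past the test against IgG. In UUO kidneys the 8 log2 differences ran from 0.09 to 0.52 and in CL kidneys from 0.01 to 0.50, and the differences between the responses from -0.25 to 0.37. Aqp3, the largest in UUO kidneys, was 0.52 higher (SE 0.34), Aqp1 0.33 (SE 0.18) and Aqp11 0.11 (SE 0.19), each with an adjusted p of 0.999. No gene passed edgeR's quasi-likelihood test in any of the 3 comparisons (0% of 9579 in each), 344, 311 and 323 genes had an unadjusted p under 0.05, and 0 of the members did. DESeq2 called 0 members in each, and edgeR's exact test, which was not run on the difference between responses, called 0 in CL and in UUO kidneys. The SE of these differences are as large as or close to many of the differences, so effects of that size were not resolved with 7 and 8 libraries.

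Deletion of Veptp in endothelial cells gave 0 calls among the members as well. Among the joined names of this arm, the CL and UUO libraries numbered 3, 4, 7 and 8 carry opposite genotypes, and the labels do not say whether a number stands for a mouse. If it does, the genotype labels of these libraries conflict, which bears on every Veptp comparison. The differences, Veptp iECKO minus Veptp WT, ran from -0.18 to 0.51 in UUO and from 0.02 to 0.53 in CL kidneys, and those between the responses from -0.47 to 0.49. Aqp11 in UUO kidneys was 0.51 higher (SE 0.25, unadjusted p = 0.0488, adjusted p = 1.0), with UUO medians of 41.0 CPM in Veptp iECKO and 27.9 CPM in Veptp WT mice whose ranges overlapped, and it was the only member with an unadjusted p under 0.05 in the 3 comparisons. Aqp1 (0.02, SE 0.16) and Aqp3 (0.07, SE 0.24) had differences below their SE, and the sign of both changed under other settings. Of all genes 0% passed in each comparison by edgeR's quasi-likelihood test, with 424, 229 and 324 at an unadjusted p under 0.05. DESeq2 called 0 members in each, and the exact test 0 in CL and in UUO kidneys.

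In the Pdgfb arm 3 members differed between genotypes. Per the study's supplement, controls of this line were mostly female and knockouts more often male. Mean Xist was 351 CPM in Pdgfb WT and 164 CPM in Pdgfb iKO UUO kidneys, and 269 and 350 CPM in CL kidneys. With the Xist level as a covariate 4 members were called higher in UUO kidneys (12.8% of all genes) and 3 had a higher response (8.32%). The part of sex was not tested otherwise. Aqp3 in Pdgfb WT mice was at 127, 107, 125 and 129.8 CPM in CL kidneys and at 25.1, 34.5, 55.9 and 18.6 CPM in UUO kidneys (-1.80, SE 0.21, adjusted p = 2.3e-07). In Pdgfb iKO mice it was at 94.6, 97.5, 109 and 113 CPM in CL and at 93.4, 62.8, 90.5 and 73.4 CPM in UUO kidneys (-0.40, SE 0.22, adjusted p = 0.32). The UUO kidneys of Pdgfb iKO mice lay below their CL kidneys without overlap, and all 4 were above all 4 UUO kidneys of Pdgfb WT mice. In UUO kidneys Aqp3 was higher in Pdgfb iKO than in Pdgfb WT mice by 1.16 on the log2 scale (SE 0.22, adjusted p = 4.49e-04), and the responses differed by 1.41 (SE 0.30, adjusted p = 0.00397). In 1 fit over all 12 groups neither passed, at 1.21 (adjusted p = 0.0547) and 1.47 (adjusted p = 0.254), and with thinned counts the difference of responses did not pass (1.59, adjusted p = 0.154).

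Aqp1 in Pdgfb WT mice was at 505, 892, 658 and 768 CPM in CL kidneys and at 216, 270.4, 294 and 311 CPM in UUO kidneys (-1.37, SE 0.17, adjusted p = 4.87e-07). In Pdgfb iKO mice it was at 609, 783, 581 and 605 CPM in CL and at 504, 520.1, 552 and 355 CPM in UUO kidneys (-0.42, SE 0.17, adjusted p = 0.154). The CL kidneys of the genotypes overlapped, and the UUO kidneys did not. Aqp1 in UUO kidneys was higher in Pdgfb iKO mice by 0.82 (SE 0.17, adjusted p = 0.00111), and the responses differed by 0.96 (SE 0.24, adjusted p = 0.0113). The latter call was lost without scaling (0.66, adjusted p = 0.0593), with thinned counts (0.93, adjusted p = 0.0634) and in 1 fit over all 12 groups (0.96, adjusted p = 0.206).

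Aqp11 in Pdgfb WT mice was at 89.8, 65.5, 59.0 and 88.0 CPM in CL kidneys and at 18.2, 19.1, 26.2 and 5.88 CPM in UUO kidneys (-2.03, SE 0.25, adjusted p = 4.01e-07). In Pdgfb iKO mice it was at 51.1, 95.0, 95.3 and 75.8 CPM in CL and at 33.4, 43.7, 42.7 and 41.4 CPM in UUO kidneys (-0.90, SE 0.25, adjusted p = 0.0336), a call lost without any 1 of 7 libraries (adjusted p up to 0.1), without scaling (adjusted p = 0.065), with thinned counts (adjusted p = 0.537) and in 1 fit over all 12 groups (adjusted p = 0.117). UUO kidneys of Pdgfb iKO mice lay between those of Pdgfb WT mice and the CL kidneys, with no overlap on either side. In UUO kidneys Aqp11 was higher in Pdgfb iKO mice by 1.15 (SE 0.26, adjusted p = 0.00289), a call lost with thinned counts (1.15, adjusted p = 0.161). The difference of responses was 1.14 (SE 0.35, adjusted p = 0.0458) and was lost without any 1 of 10 of the 16 libraries (adjusted p up to 0.0936). It was also lost without scaling (0.86, adjusted p = 0.139), with a mean count of at least 20 (1.08, adjusted p = 0.0552), with thinned counts (1.38, adjusted p = 0.267) and in 1 fit over all 12 groups (1.14, adjusted p = 0.261).

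**Figure D4:**
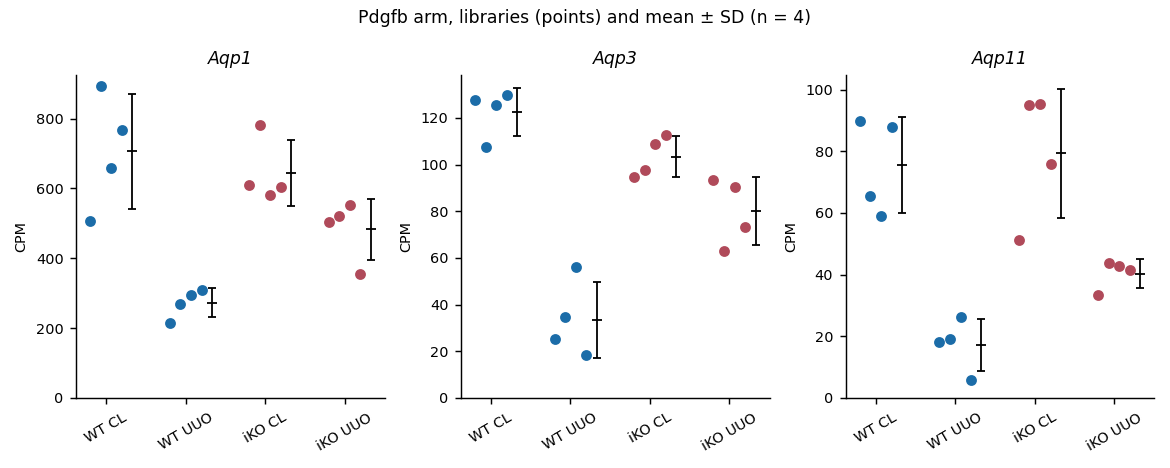
Level of Aqp1, Aqp3 and Aqp11 in each library of the Pdgfb arm (CPM, linear axis from 0, with mean and SD, n = 4). In UUO kidneys the 4 Pdgfb iKO libraries lie above the 4 Pdgfb WT libraries for each gene, for Aqp3 at 62.8 to 93.4 CPM against 18.6 to 55.9 CPM.

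Of all genes 12% were called higher in Pdgfb iKO than in Pdgfb WT UUO kidneys and 6.66% had a higher response, beside 3 of 8 members in each. The differences of Aqp2, Aqp4, Aqp6 and Aqp7 in UUO kidneys did not pass, and neither did that of Avpr2 (0.63, adjusted p = 0.088). With the Xist level as a covariate Avpr2 passed there (0.76, adjusted p = 0.0236). In CL kidneys the 8 differences ran from -0.24 to 0.55, with 0 of 8 at an unadjusted p under 0.05, and 0% of all genes passed edgeR's quasi-likelihood test (378 at an unadjusted p under 0.05). DESeq2 and the exact test called 0 members there. Markers moved with the genotype in UUO kidneys: the summed level of 10 proximal tubule genes was 2952 to 3727 CPM in Pdgfb WT and 4266 to 8180.0 CPM in Pdgfb iKO mice, that of 5 red blood cell genes 319 to 424 CPM and 564 to 835 CPM, and that of 6 endothelial genes 215 to 273 CPM and 139 to 228 CPM. The red blood cell genes were also higher in Pdgfb iKO CL kidneys (median 0.63, 4 of 4 at an unadjusted p under 0.05 and 0 called by edgeR's quasi-likelihood test). The part of these markers in the member differences was not tested beyond the ratios that follow.

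Ratios to other genes of the same tubule segment were taken within each library, so that scaling cancels. Aqp2 and Aqp3 were set over 7 principal cell genes, whose changes in IgG-treated mice ran from -0.70 to 0.25 with 1 called lower. The longer list of 13 principal cell genes reached -1.96 there with 3 called lower, and the 7 leave out Kcnj1 and Scnn1a. A fall of Aqp3 beyond principal cell genes in general can therefore not be read from this ratio. Aqp3 over 7 principal cell genes fell with UUO by a mean log2 ratio of -1.44 in IgG-treated (adjusted p = 0.002), -1.09 in ABTAA-treated (adjusted p = 0.0131), -1.21 in Veptp WT (adjusted p = 0.002) and -1.27 in Veptp iECKO mice (adjusted p = 0.002), by exact 2-sided permutation tests with Benjamini-Hochberg adjustment over 18 comparisons. In Pdgfb WT mice it was -1.73, at the smallest exact permutation p that 4 against 4 libraries allow (p = 0.0286, adjusted p = 0.0857), and in Pdgfb iKO mice -0.11 (exact permutation, adjusted p = 0.712). That smallest p did not pass after adjustment over these 18 comparisons. The 4 Pdgfb WT UUO libraries all lay below the 4 CL libraries. Within libraries with plain names the Aqp3 ratio was -1.18, -0.75, -0.63 and -0.59 in the first 4, and with joined names it was -1.70, -1.53, -1.63 and -1.71.

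The ratio of Aqp2 to the same 7 genes passed in none of the 6, with values from -1.45 in Veptp iECKO to 0.08 in Pdgfb iKO mice and adjusted p from 0.0692 (ABTAA-treated, -0.89) to 0.756 by the exact permutation test. Within joined names it was -1.74 in Veptp WT and -1.53 in Veptp iECKO mice, both at the smallest exact permutation p that 4 against 4 libraries allow (p = 0.0286, adjusted p = 0.0686), and within plain names -0.24 and -0.22. In IgG-treated and ABTAA-treated mice it was -0.87 and -1.42 within joined and -0.59 and -0.49 within plain names. The ratio of Aqp1 to 7 proximal tubule genes ran from -0.14 in Pdgfb WT to 0.12 in Pdgfb iKO mice, with adjusted p between 0.514 and 0.945. Of these 7 genes 6 were called lower and 1 higher (1.32) in IgG-treated mice. In UUO kidneys the mean log2 ratio of Aqp1 was -3.19 ± 0.06 in Pdgfb WT and -3.16 ± 0.13 in Pdgfb iKO mice (SD, n = 4), values closer than their spread. The mean ratio of Aqp3 was -4.27 ± 0.64 and -2.94 ± 0.24 in the same kidneys. The difference between genotypes in these ratios was not tested.

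**Figure D5:**
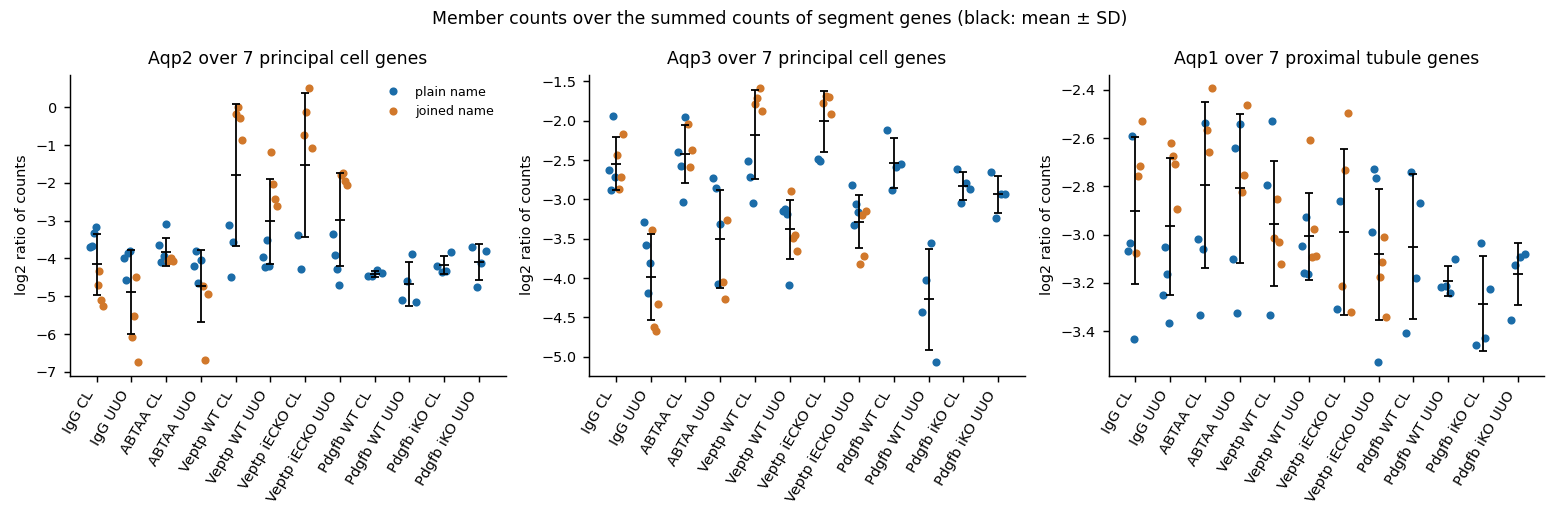
Log2 ratio of Aqp3 and Aqp2 to 7 principal cell genes and of Aqp1 to 7 proximal tubule genes in each library (y axis, no unit) for CL and UUO kidneys of the 6 genotypes or treatments, coloured by form of name, with mean and SD in black. Mean Aqp3 ratios are lower in UUO kidneys in all 6, in Pdgfb iKO mice by 0.11 only (-2.83 in CL and -2.94 in UUO kidneys), and Aqp1 ratios keep means between -3.29 and -2.79 throughout.

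Of 14 genes for vasopressin receptors and cAMP signalling, a list that leaves out Avpr2, 10 or 11 were tested. The number called lower and called higher was 0 and 2 in IgG-treated, 0 and 1 in ABTAA-treated, 0 and 0 in both Veptp groups, 1 and 1 in Pdgfb WT and 0 and 0 in Pdgfb iKO mice. The list medians were between -0.18 and 0.13, and the shares of all genes called are given above for each group. Crem, a cAMP-responsive transcription factor, rose in IgG-treated mice (1.03, adjusted p = 9.62e-06), as did Creb1, which binds the cAMP response element (0.68, adjusted p = 0.0324). Adcy6, an adenylyl cyclase of the collecting duct, fell in Pdgfb WT mice (-0.44, adjusted p = 0.0405), and Adcy9 passed in none (-0.38 in IgG-treated mice, adjusted p = 0.284). Among 9 genes for vesicle movement of AQP2, of which 8 or 9 were tested, Anxa2, an annexin that also rises in injured epithelia, rose in all 6 (1.22 to 1.87, adjusted p of 0.00147 at most). In Pdgfb WT mice the fusion protein gene Stx4a rose (0.46, adjusted p = 0.0416) and Sipa1l1 fell (-0.49, adjusted p = 0.0215). Adcy6, Sipa1l1 and the genes of small counts named next were named after their values were seen.

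Of 13 principal cell genes 9 to 13 were tested, and 3, 1, 2, 2, 3 and 2 were called lower in IgG-treated, ABTAA-treated, Veptp WT, Veptp iECKO, Pdgfb WT and Pdgfb iKO mice, with 0 called higher and medians between -0.61 and -0.24. Beside the 12.5% of all genes called lower in ABTAA-treated mice, 1 of 9 is no more than the background. Kcnj1, the ROMK potassium channel shared with the thick ascending limb, fell in all 6 (-1.96 to -0.69, adjusted p of 0.0238 at most). Scnn1a fell in all but ABTAA-treated mice (-0.66, adjusted p = 0.225), for example by 1.64 in IgG-treated mice (adjusted p = 0.00194), and Scnn1b, another subunit, fell in IgG-treated mice (-0.70, adjusted p = 0.0347). The summed level of the list was 914 to 1248 CPM in CL and 515 to 802 CPM in UUO kidneys of IgG-treated mice. In Pdgfb WT mice Hsd11b2 was the third call (-0.56, adjusted p = 0.0192). The counts of this list and of the members were not tested against each other.

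Genes of the thick limb, urea transport and tonicity response build the gradient that draws water through aquaporins. Of 12 genes, 10 or 12 were tested, and 6, 6, 6, 7, 6 and 2 were called lower in the order above, with 1, 0, 1, 0, 2 and 0 higher and medians between -1.35 and -0.59. Slc12a1, the sodium-potassium-chloride cotransporter, fell in all 6 (-2.16 to -0.89, adjusted p of 0.00825 at most), and the genes called higher were Nfat5, the tonicity-responsive factor, in IgG-treated (0.50, adjusted p = 0.0238) and Pdgfb WT mice (0.65, adjusted p = 0.021), Akr1b3 in Pdgfb WT (0.53, adjusted p = 0.0203) and Slc6a6 in Veptp WT mice (0.45, adjusted p = 0.0122). Of 10 genes for prostaglandin E2, which opposes vasopressin in the collecting duct, 8 were tested, and 1, 1, 1, 1, 2 and 0 fell while 2, 1, 2, 0, 2 and 0 rose, beside 18.4% of all genes lower and 16% higher in IgG-treated and 12.5% and 12.7% in ABTAA-treated mice. The receptor Ptger3 fell in all but Pdgfb iKO mice (-1.98 in IgG-treated mice, adjusted p = 4.55e-06), with Ptges2 the other call in Pdgfb WT mice (-0.54, adjusted p = 0.013), and in IgG-treated mice the receptor Ptger4 (1.08, adjusted p = 0.00233) and the transporter Slco2a1 (0.79, adjusted p = 0.00298) rose. The part of carprofen in these values and in those of the members was not tested.

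Markers of other cells that hold members were counted in the same order. Of 6 intercalated cell genes 4, 4, 3, 4, 6 and 2 were called lower, among them Slc4a1, an anion exchanger that red blood cells also make (-2.31 in IgG-treated mice, adjusted p = 8.75e-06), and the proton pump subunits Atp6v1b1 (-1.28, adjusted p = 2.61e-05) and Atp6v0d2 (-0.77, adjusted p = 0.00497). Of 10 proximal tubule genes 8, 7, 4, 3, 9 and 4 were called lower and 1, 1, 1, 1, 1 and 0 higher (Slc13a1, a sulfate transporter, 1.32 in IgG-treated mice, adjusted p = 2.95e-05), with the glucose transporter Slc5a2 at -1.31 (adjusted p = 2.52e-07), the endocytic receptor Cubn at -0.97 (adjusted p = 1.08e-06) and the transcription factor Hnf4a at -0.74 (adjusted p = 3.58e-06) in IgG-treated mice. Aqp1 is also present in capillary endothelium and red blood cells. Of 6 endothelial genes 0 to 2 were called in either direction in any group, with Pecam1 at 0.71 (adjusted p = 0.0215), Cdh5 at 0.60 (adjusted p = 0.048) and Egfl7 at 0.45 (adjusted p = 0.113) in IgG-treated mice, and red blood cell genes were called lower in IgG-treated (3 of 4) and Pdgfb WT mice (2 of 4). After removing group and form means, Aqp1 followed the summed proximal tubule level at r = 0.448, the red blood cell level at r = 0.351 and the endothelial level at r = 0.159 over 75 libraries, and their part in its change was not tested.

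The genes most like each member in pattern, by Pearson correlation over the 75 libraries after removing the mean of each group and form among 9554 genes tested in all arms, were these. For Aqp2 they were Ranbp3l (0.579), Pbxip1 (0.551) and Tspan12 (0.525), and for Aqp3 Rhcg (0.659), Slc12a1 (0.621) and Slc22a8 (0.612). For Avpr2 they were its overlapping neighbour Arhgap4 (0.787), Cldn8 (0.616) and Gstm2 (0.606), and for Aqp4 Aadat (0.80), Oat (0.799) and Fam81a (0.796). For Aqp1 they were Abhd14b (0.733), Uqcrc1 (0.69) and Gm28959 (0.689), and for Aqp11 Khk (0.635), Slc46a1 (0.625) and Ndufb5 (0.621). Aqp6 was closest to Acss1 (0.674), Itpr2 (0.628) and Creb3l2 (0.626), and Aqp7 was among others close to Prps1l3 (0.661) and Slc25a26 (0.651). Between members the values ran from -0.163 (Aqp2 and Aqp7) to 0.492 (Aqp3 and Aqp6). Libraries share arms and depth, and no test was made. The other aquaporin genes listed (Mip, Aqp5, Aqp8, Aqp9 and Aqp12) did not pass the filter on low counts in any arm.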

How the data were processed

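RNA of whole kidneys was sequenced in 75 libraries. Per the study's methods and the submitters' processing notes, the authors merged the wells of each sample, mapped reads with STAR 2.7.3a to mm10, removed duplicates by molecular identifier with UMI-tools 1.1.4 and counted with featureCounts (Subread 1.4.6-p5); no annotation or strand setting is given there. The deposited values are raw counts per gene, and 0 columns were left unused.

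The members, gene lists and tests were chosen with earlier results of these data known. Groups came from the labels. Each arm was fitted alone over its 4 groups with edgeR 4.0.16 in R 4.3.3 (filterByExpr, trimmed-mean scaling, quasi-likelihood F test, no covariate), which kept 9579 (ABTAA), 11916 (Veptp) and 10923 (Pdgfb) genes, with Benjamini-Hochberg adjustment and a threshold of 0.05. All 8 members passed the filter in every arm. SE is the log2 change over the square root of F. The fits were tested on simulated data. Fits that split libraries by form of name kept 10596 and 13088 genes. Ratios used log2 of counts plus 1 and exact permutation tests (scipy 1.17.1). Libraries count as replicates, and p-values measure only the spread between them, since the labels do not say that each is a separate mouse. Named list genes were the 3 with the lowest adjusted p in IgG-treated mice, exceptions being said, and some genes that these rules name are not reported here.

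In the ABTAA arm, CL and UUO libraries of ABTAA-treated mice sharing a number (N and O 9, 11 and 12) deviated together (r = 0.384, 0.194 and 0.161), so the numbers were taken to pair them and the blocked value is given where it changed a call. Alternatives were no scaling, DESeq2 1.42.0, other filters, the exact test, thinned counts, the form of name, the block, Xist as a covariate and leaving out each library. Promoters are from RefSeq on GRCm38.p6 and gene positions from GENCODE on GRCm38.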

Additional observations from a re-analysis of the deposited data

Results flagged for a closer look

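Of the 96 sets of member values (8 genes in 12 groups), 10 held a library far from the others by Dixon's criterion on log2(CPM + 1), where chance gives about 1 in 20. For Aqp1 these were F9 among Veptp WT CL (10.0) and D10 among Pdgfb iKO CL libraries (9.61). For Aqp2 they were E4 among Pdgfb WT CL (4.67) and E11 among Pdgfb iKO UUO libraries (4.48). For Aqp4 they were D7 among IgG-treated UUO (0.0) and B11 among Pdgfb WT UUO libraries (3.38). For Aqp6 they were N_11 among ABTAA-treated CL (3.0) and E11 among Pdgfb iKO UUO libraries (3.47). For Avpr2 they were H9 among Veptp WT UUO (2.84) and E4 among Pdgfb WT CL libraries (4.23). E4 and E11 stood out for 2 members each, and D7 is the library at 0 counts of Aqp4.

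The response to UUO differed between Pdgfb iKO and Pdgfb WT mice by an interaction term for Aqp3 (log2 difference 1.41), Aqp1 (0.956) and Aqp11 (1.14). Within the Veptp arm the response of Aqp3 differed between libraries with joined and plain names (-1.25).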

How the results depend on the processing

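The number of members called for UUO against CL fell when counts were thinned to the shallowest library of an arm, leaving 3 in IgG-treated, 1 in ABTAA-treated, 0 in both Veptp groups, 3 in Pdgfb WT and 0 in Pdgfb iKO mice, and 0 for the Pdgfb difference of responses. Only 4 members were still tested in the ABTAA arm, and the shares of all genes called lower were 10.3%, 3.86%, 0.828%, 0.0153%, 11.9% and 0.332%. One fit over all 12 groups gave 3 in Pdgfb WT, 0 in Pdgfb iKO mice and 0 for that difference, beside 10.2%, 0.0491% and 0.172% of all genes. No scaling gave 4 in Veptp WT (4.62%), 4 in Pdgfb WT (10.7%) and 0 in Pdgfb iKO mice (1.43%) and 1 for the difference (2.88%), the exact test gave 3 in Veptp iECKO mice (2.54%), and plain names alone gave 3 in Veptp WT and 0 in Veptp iECKO mice. Leaving out 1 library moved the count from 3 to 7 in Veptp iECKO and from 0 to 3 in Pdgfb iKO mice.

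Of the single-gene values for UUO against CL under these settings, 408 kept direction and side of the threshold, 29 newly passed, 48 no longer passed and 9 turned direction. Aqp7 turned with joined names only (0.13 IgG-treated, 0.10 ABTAA-treated, 0.030 Veptp WT), without scaling (0.034 Veptp WT, 0.24 Pdgfb WT), thinned (0.14 Veptp WT, 0.076 Veptp iECKO) and with Xist (0.15 Veptp WT), and Aqp2 in Pdgfb WT mice without scaling (0.073). In UUO kidneys Aqp11, ABTAA minus IgG, was -0.48 thinned and -0.064 with plain names. Aqp1, Veptp iECKO minus WT, was -0.11 without scaling, -0.0039 with DESeq2, -0.0040 thinned and -0.33 with joined names, and Aqp3 was -0.097 thinned and -0.060 with joined names. Leaving out 1 library gave ranges of -0.080 to 0.072 and -0.015 to 0.18 for those Aqp1 and Aqp3 differences, -0.39 to 0.042 for Aqp2 in Pdgfb iKO mice, -0.36 to 0.13 for Aqp7 in Pdgfb WT mice and -0.25 to 0.035 for Aqp7 in Veptp WT mice.

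The Aqp3 ratio in IgG-treated mice was -1.18 with plain and -1.70 with joined names, in Veptp WT mice -0.63 and -1.63, in Veptp iECKO mice -0.59 and -1.71, and in ABTAA-treated mice -0.75 with plain names. The Aqp1 ratio turned to 0.084 (ABTAA-treated) and 0.084 (Veptp iECKO) with plain names, and to 0.045 (IgG-treated) and 0.064 (Veptp WT) with joined names. Leaving out 1 library, it ranged from -0.102 to 0.0739 in ABTAA-treated, -0.159 to 0.00656 in Veptp iECKO and -0.117 to 0.0170 in Veptp WT mice, and the Aqp2 ratio from -1.04 to -0.56 in ABTAA-treated and -0.0437 to 0.302 in Pdgfb iKO mice. The cause of these changes was not tested.

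With the replicate number as a block beside the form of name, 6 members were called in IgG-treated, 6 in ABTAA-treated, 7 in Veptp WT and 7 in Veptp iECKO mice, beside 21.7%, 16.9%, 15.5% and 10.3% of all genes, and Aqp3, Veptp iECKO minus WT in UUO kidneys, was -0.019. In the Veptp arm same-numbered libraries correlated between 0.0768 and 0.468, some numbers carry opposite genotypes and not every library was closest to its own number, so the numbers there are not taken as pairs. The highest value, 0.468, was that of G_3 and H_3, whose genotype labels differ, and G_3 was closest to its own number. So were G_7 (r = 0.143) and G_8 (r = 0.294), also of opposite genotypes, and G_4 (r = 0.301) was not. Depth limits the members with few reads: the lowest count in a library was 0 for Aqp4 and Aqp7, 1 for Aqp2 and Aqp6, 2 for Avpr2, 3 for Aqp11, 6 for Aqp3 and 43 for Aqp1.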
